A study of Mus musculus with 8 samples.

Results

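The Wnt ligands, their Frizzled and Lrp receptors, the secreted Wnt antagonists and the transcriptional readouts Axin2 and Lef1 were read in the pancreas of Glis3KO2 and WT pups. Member genes were those with a non-control probe whose gene name in the array files begins with Wnt, Fzd, Sfrp or Dkk followed by a digit, or is Frzb, Wif1, Lrp5, Lrp6, Axin2 or Lef1. This gave 43 genes with 57 probes, of 41174 distinct probes with 27962 distinct names on the array. By role these were 19 ligands, 10 Frizzled receptors, 2 co-receptors, 10 secreted antagonists and 2 intracellular proteins. The rule used gene names and no measured value, but it was set with earlier results of these data known.

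The study profiled total RNA of whole pancreas from 4 Glis3KO2 and 4 WT mice on Agilent mouse arrays with 1 Cy3-labelled sample each. Both groups were C57BL/6 pups aged 1 week that stayed with their own mothers, and the labels give no allele or treatment other than the Glis3KO2 genotype. Glis3 is a Krüppel-like zinc finger transcription factor needed for insulin gene expression and for the formation of endocrine cells. The labels do not give the deleted part of Glis3, the litters or whether each sample came from 1 pup, so the p-values measure only the spread between these samples, which may be technical.

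Wnt proteins are secreted lipid-modified ligands. In the best-known branch of the pathway a Wnt binds a Frizzled receptor together with Lrp5 or Lrp6, beta-catenin escapes degradation, and beta-catenin then acts with TCF/LEF factors on target genes such as Axin2. Sfrp proteins, Frzb and Wif1 bind Wnt ligands outside the cell, whereas Dkk1 and some of its relatives act mainly on Lrp5 and Lrp6. In the developing pancreas the pathway is known for its part in the growth of the exocrine tissue, and surrounding mesenchyme is a source of both ligands and antagonists.

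The sequences of 2 probe pairs are shown because the family is made of related genes, which bears on how each probe's signal is read. The Wnt4 probe lies on chr4:136674216-136674784 and the Wnt5a probe on chr14:25948244-25952114, both on the plus strand of build mm7, per the array files. Each probe is 60 bases long, but the Wnt4 probe spans 569 bases of genome and the Wnt5a probe 3871, so both cross at least 1 intron. Capitals mark the bases that are identical in the best overlap of the pair without gaps.
Wnt4: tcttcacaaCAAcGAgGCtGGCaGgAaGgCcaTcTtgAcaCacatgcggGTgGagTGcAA
Wnt5a: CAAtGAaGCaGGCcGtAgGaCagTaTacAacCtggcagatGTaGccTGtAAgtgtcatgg
The Wnt4 and Wnt5a probes matched at 25 of 51 overlapping bases (49.0%). The second pair is the dimmer of the 2 Fzd7 probes, at chr1:59735681-59735740, and the brighter Fzd2 probe, at chr11:102715340-102715399, on the plus strand of the same build.
Fzd7: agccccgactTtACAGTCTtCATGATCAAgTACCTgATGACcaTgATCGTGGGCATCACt
Fzd2: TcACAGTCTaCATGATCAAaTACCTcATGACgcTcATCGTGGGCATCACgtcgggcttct
These matched at 42 of 50 overlapping bases (84.0%). Whether either probe also takes up RNA of the other gene was not tested. No annotation of build mm7 was used here, so the exons are not named.

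Each value below is the log2 of a probe's processed signal minus the log2 of the array's 75th percentile, so 0 is the 75th percentile and a negative value lies below it. Levels are compared between arrays for 1 probe, never between probes. The test took probes whose signal the scanner software called well above background on 4 or more arrays, of either genotype, and the brightest probe stands for its gene. Of the 43 genes, 41 entered the test, and 39 of these were well above background on all 8 arrays. Fzd10 and Wnt8b were so on 7 arrays, all 4 Glis3KO2 and 3 WT. No tested gene therefore passed through 1 genotype alone. The antagonist gene Dkk4 was not well above background on any array, and the ligand gene Wnt8a was so only on WT replicate 3, at -3.02, where the other 7 arrays read between -8.51 and -5.87. Of the 57 probes, 52 entered the test.

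The arrays gave 31353 to 35613 probes well above background, or 76.1% to 86.5%, and no spot was saturated. Ins2, an insulin gene taken as a check of the comparison, was lower in Glis3KO2 by a log2 difference of -3.70 (limma, SE 0.22, adjusted p = 0.000536). The Glis3 probe was above background on 0 Glis3KO2 and 3 WT arrays and was not tested. The 4 Glis3KO2 arrays shared 1 slide and the 4 WT arrays a second one, and an effect of the slide cannot be told apart from that of genotype. Glis3KO2 replicates 3 and 4 stood apart on the first principal component, at 39.8 and 59.0, against -26.0 to 0.459 for the other 6 arrays, and Glis3KO2 replicate 1 on the second, at 62.6, against -32.1 to 10.6 for the other 7. The RNA spike-ins, 10 probes, were lower in Glis3KO2 for 9 of them after the scaling, with a median log2 difference of -0.28, and were lowest on Glis3KO2 replicates 3 and 4. Xist, a transcript of female cells, was high on 3 Glis3KO2 arrays and 1 WT array. Marker genes of acinar cells, 9 tested, and of duct, 8 tested, had list means that overlapped between the genotypes. All differences are of a bulk tissue, in which fewer cells of a type and less RNA per cell cannot be told apart.

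None of the 41 tested genes passed the adjusted p of 0.05 (limma with Benjamini-Hochberg adjustment over all 33239 tested probes), where 0.256% of all tested probes did, 0.0812% higher and 0.174% lower in Glis3KO2. The adjusted p-values of the members ran between 0.267 and 1.00. At an unadjusted limma p under 0.05 there were 5 genes, Frzb, Wnt4, Sfrp4, Fzd1 and Fzd2, which is 12.2% of the 41 against 8.97% of all tested probes. The log2 differences, Glis3KO2 minus WT, had a median of 0.05 and lay between -0.79 and 0.77, where the median over all tested probes was -0.01. They were positive for 24 genes and negative for 17, but the split depended on the processing. With the normexp method it was 16 and 25. That method models the local background from the raw mean signal, in place of the scanner software's corrected and detrended signal. It also adds an offset of 50 to every value. The separate parts of background, detrending and offset in the change were not tested. The normexp medians were -0.03 over the members and -0.04 over all tested probes. Scaling the arrays to the spike-ins, an alternative added after the data were seen, moved the median of all probes by 0.27 and gave 36 positive and 5 negative differences. The directions below are relative to each array's 75th percentile.

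For 37 of the 41 genes the 95% interval of the difference lay within 2-fold in both directions. The exceptions were Frzb, Lef1, Wnt10a and Wnt4. The groups did not overlap for 2 of the 41 genes (4.88%), Frzb and Wnt4, where this held for 5.20% of all tested probes. Both were lower on every Glis3KO2 array than on any WT array, and 3.35% of all tested probes were separated in that direction. In the other direction there were 0 of the 41 genes by their brightest probe, and 1.86% of all tested probes. Over all 52 member probes tested, 2 were separated above WT (3.85%), the dimmer probes of Fzd2 and Fzd7, and 2 below (3.85%). With spike-in scaling Frzb and Wnt4 overlapped between the genotypes, at differences of -0.52 and -0.36, while 5 other genes (Fzd1, Fzd4, Sfrp1, Wnt5b and Wnt6) were separated above WT. That scaling moved the median of all tested probes by 0.27. The share of all tested probes separated under it was not counted, so the 5 genes are not read as a result about the members.

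**Figure D1:**
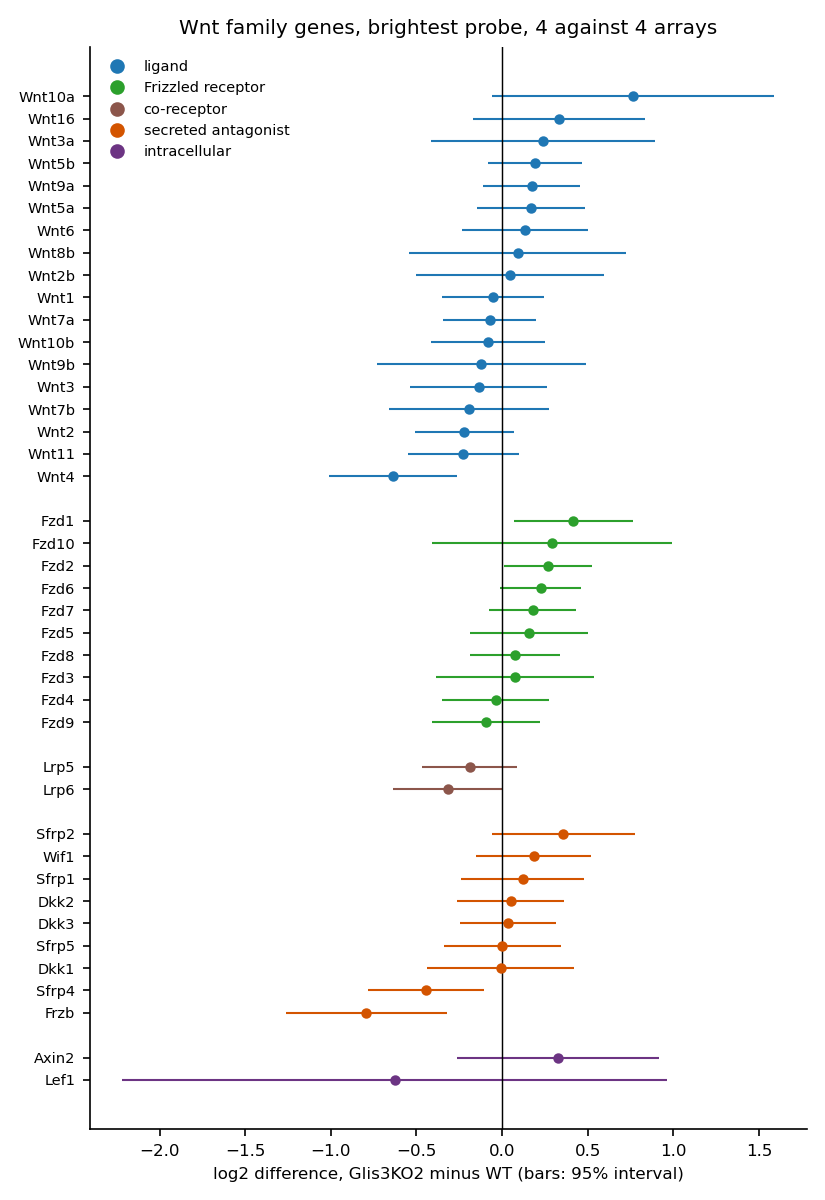
The log2 difference, Glis3KO2 minus WT, is plotted for the 41 tested genes from the brightest probe, with points for the fitted value, bars for the 95% interval and colours for the role. Frzb (-0.79) and Wnt4 (-0.64) lie furthest to the left among genes whose arrays separate by genotype, and the widest bar belongs to Lef1.

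Among the ligands, Wnt4, a Wnt known from kidney and reproductive tract development, read -1.72, -1.71, -1.92 and -2.30 on the 4 Glis3KO2 arrays, against -1.34, -1.53, -1.21 and -1.01 on the 4 WT arrays. Every Glis3KO2 value lay below every WT value, and the lowest was on Glis3KO2 replicate 4. The means were -1.91 ± 0.28 in Glis3KO2 and -1.27 ± 0.22 in WT (SD, n = 4 each). The log2 difference was -0.64 (SE 0.17, 95% interval -1.01 to -0.26), a ratio of 0.643, with an adjusted limma p of 0.267, which did not pass the threshold.

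The ligands were spread around 0: of the 18 tested, 9 differences were positive and 9 negative, with a median of -0.002. With normexp the counts were 4 and 14, as Wnt16, Wnt2b, Wnt3a, Wnt5a and Wnt8b turned sign, and with spike-in scaling 17 and 1, Wnt4 being the negative one. The largest positive difference was that of Wnt10a, which belongs to the ligands used in skin appendages. It read -3.36, -4.35, -4.13 and -3.28 in Glis3KO2 and -3.70, -4.87, -4.33 and -5.28 in WT. The genotypes overlapped and the difference was 0.77 (SE 0.36, limma adjusted p = 0.587), or 0.19 with normexp.

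Wnt5a, the archetype of ligands that act without beta-catenin, had a log2 difference of 0.17 (SE 0.14). Its relative Wnt5b read 0.50, 0.51, 0.36 and 0.63 in Glis3KO2 and 0.43, 0.50, 0.09 and 0.22 in WT, a difference of 0.19 (SE 0.12), with overlapping groups. Wnt7b, a ligand of epithelial tips in lung and kidney ducts, had a difference of -0.19 (SE 0.21). Wnt11, which acts in cell movements, was at -0.23 (SE 0.14), and Wnt2, a mesenchymal ligand in lung, at -0.22 (SE 0.13).

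The archetypal ligands of the beta-catenin branch, Wnt1, Wnt3 and Wnt3a, had differences of -0.05, -0.14 and 0.24. Wnt3 was 1 of only 2 genes whose 2 tested probes differed in sign, its dimmer probe giving 0.06. Wnt6 was at 0.13, Wnt9a at 0.17, Wnt9b at -0.12, Wnt10b at -0.08, Wnt7a at -0.07, Wnt16 at 0.33, Wnt2b at 0.05 and Wnt8b at 0.09. None of these had an unadjusted p under 0.05, and in each the genotypes overlapped.

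**Figure D2:**
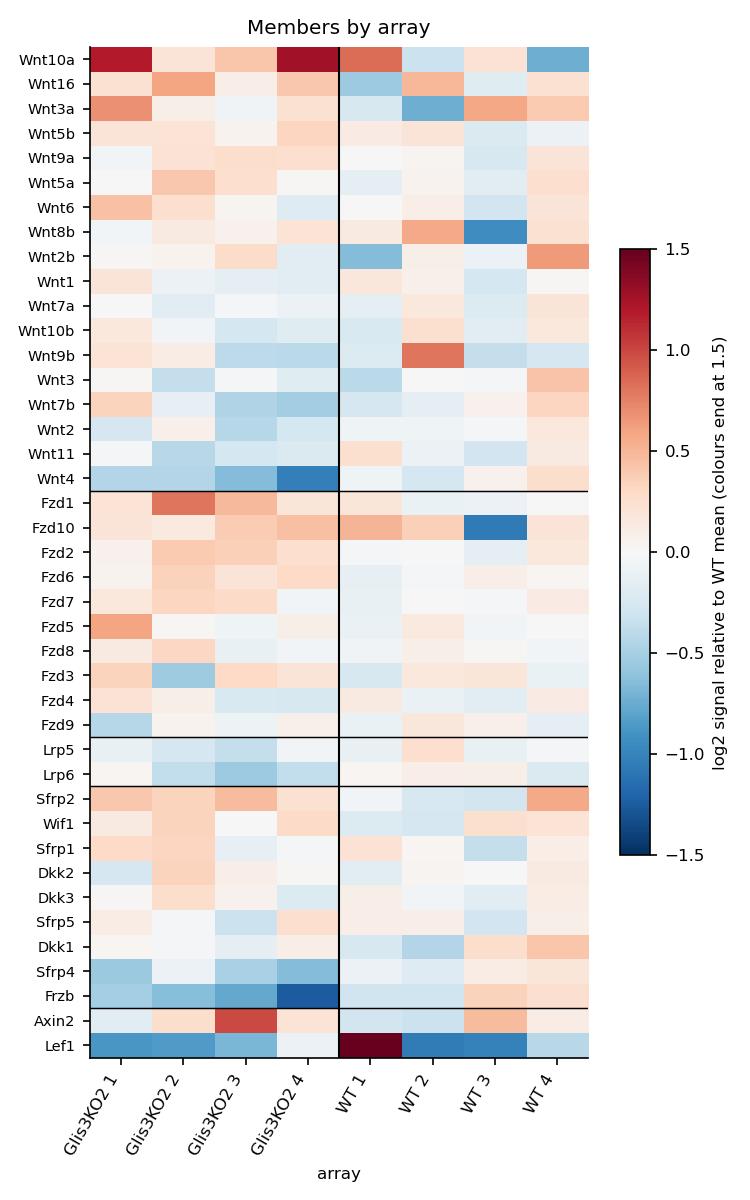
Each row is 1 of the 41 tested genes, grouped by role, and each column 1 array, Glis3KO2 left of the vertical line and WT right of it. Colours give the log2 signal relative to the WT mean, ending at 1.5, and the rows of Wnt4 and Frzb are blue on all 4 Glis3KO2 arrays, while Lef1 is dark red only on WT replicate 1.

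Of the 10 Frizzled receptors, the membrane-spanning proteins that bind Wnt through a cysteine-rich domain, all entered the test. The difference was positive for 8 and negative for 2, with a median of 0.17, while with normexp it was positive for 6 and negative for 4, with a median of 0.006, as Fzd5 and Fzd10 turned sign. With spike-in scaling it was positive for all 10. Fzd1 read 1.32, 1.92, 1.60 and 1.30 in Glis3KO2 and 1.30, 1.01, 1.03 and 1.13 in WT. The groups met at 1.30, and the difference was 0.42 (SE 0.15, 95% interval 0.07 to 0.76, limma adjusted p = 0.472). This gene and the next 2, as well as Lrp6, Sfrp4, Wnt10a and Wnt5b, are given by array after their values were seen.

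Fzd2 read 1.01, 1.33, 1.30 and 1.19 in Glis3KO2 and 0.92, 0.95, 0.80 and 1.10 in WT on its brighter probe, whose sequence is shown above. The genotypes overlapped, and the difference was 0.27 (SE 0.11, limma adjusted p = 0.536). Its dimmer probe gave 0.19, with no overlap.

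Fzd7, a receptor common in stem and progenitor cells, differed by 0.18 (SE 0.11) on its brightest probe, with overlapping groups. Its dimmer probe, the one that shares 42 of 50 bases with the Fzd2 probe, read -3.03, -2.88, -3.00 and -2.94 in Glis3KO2, against -3.41, -3.37, -3.38 and -3.45 in WT. All 4 Glis3KO2 values lay above all 4 WT values on this probe. The difference was 0.44 (SE 0.09) with an adjusted limma p of 0.127, the lowest of the 52 tested probes, and 0.18 with normexp.

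The remaining receptors had overlapping genotypes. The differences were 0.22 for Fzd6, an atypical Frizzled of planar polarity, and 0.16 for Fzd5. They were 0.29 for Fzd10, 0.08 for Fzd3 and 0.08 for Fzd8. Negative values were -0.04 for Fzd4, the receptor of Norrin in retinal vessels, and -0.09 for Fzd9. The second probe of Fzd8 gave -0.21. Of the 11 genes with 2 tested probes, 9 gave the same sign on both, and in none did the 2 differ by more than 0.5.

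The co-receptors Lrp5 and Lrp6 both had negative differences, of -0.19 (SE 0.12, limma adjusted p = 0.703) and -0.32 (SE 0.14, limma adjusted p = 0.563), although Lrp5 turned sign with spike-in scaling. Lrp6 read -2.64, -3.04, -3.22 and -3.04 in Glis3KO2 and -2.64, -2.56, -2.58 and -2.89 in WT. The genotypes overlapped, with Glis3KO2 replicate 1 inside the WT range and the other 3 Glis3KO2 arrays below it.

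Among the 9 tested secreted antagonists, 6 differences were positive and 3 negative, with a median of 0.03; with normexp the counts were 5 and 4, and with spike-in scaling 7 and 2. Frzb, a Wnt-binding antagonist also called Sfrp3, had the most negative difference of the 41 tested genes. Its probe lies at chr2:80256141-80256200 on the minus strand of mm7. It read -1.62, -1.75, -1.87 and -2.36 on the Glis3KO2 arrays and -1.40, -1.40, -0.76 and -0.86 on the WT arrays. The 2 ranges did not meet, the lowest value being on Glis3KO2 replicate 4. Means were -1.90 ± 0.32 in Glis3KO2 and -1.11 ± 0.34 in WT (SD, n = 4 each). The log2 difference was -0.79 (SE 0.21, 95% interval -1.26 to -0.32), a ratio of 0.577, and the adjusted limma p of 0.279 did not pass.

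Genes of the beta cell, which makes insulin, differed between the same arrays. Of 10 listed beta cell genes, 7 were called lower in Glis3KO2 and 0 higher. Their mean relative to WT was -1.18, -1.36, -1.50 and -1.83 on Glis3KO2 replicates 1 to 4 and -0.16, -0.22, 0.24 and 0.14 on WT replicates 1 to 4. Frzb, Wnt4 and the means of the beta cell, mesenchyme and endothelium lists were all lowest on Glis3KO2 replicate 4 and next lowest on replicate 3 within that genotype. For 6 genes of other islet cells, 2 of them called lower, the means lay between -1.08 and -0.49 in Glis3KO2 and between -0.09 and 0.11 in WT. Over the Glis3KO2 arrays Frzb had the order of the beta cell list, and Wnt4 that of the mesenchyme and endothelium lists. The spike-ins had the same order there as Frzb, with median deviations of 0.18, 0.07, -0.33 and -0.46 on replicates 1 to 4. An order shared over these arrays is therefore not particular to a cell type. Within WT neither gene was ordered over the 4 arrays exactly as the beta cell list was. Frzb differed from it only in the order of WT replicates 1 and 2, and Wnt4 only in that of WT replicates 3 and 4. Frzb there had the order of the other islet list, but it read -1.40 on both WT replicates 1 and 2. Wnt4 within WT did not have the order of the mesenchyme and endothelium lists. Without Glis3KO2 replicates 3 and 4 the differences were -0.58 for Frzb and -0.44 for Wnt4. The part of the endocrine or other cells in the 2 genes' differences was not tested.

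The list means of other tissues overlapped between the genotypes. The mean over 12 mesenchyme genes lay between -0.07 and 0.27 in Glis3KO2 and between -0.15 and 0.18 in WT. For 10 endothelial genes it lay between -0.40 and 0.04 in Glis3KO2 and between -0.08 and 0.14 in WT, and for 9 nerve and glia genes between -0.36 and 0.08 in Glis3KO2 and between -0.08 and 0.07 in WT. Of these lists 0 genes were called. Single genes were separated below WT, namely Kdr and Flt1, endothelial receptors of VEGF, at -0.34 and -0.44, and Nefl, a neurofilament gene, at -0.81, and the nerve growth factor receptor gene Ngfr above WT, at 0.46. Of all tested probes, 3.35% were separated below WT and 1.86% above it. Separation of these single genes under spike-in scaling was not examined. Of the 10 endothelial genes, 9 had a negative difference, and of the 12 mesenchyme genes, 10 had a positive one.

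**Figure D3:**
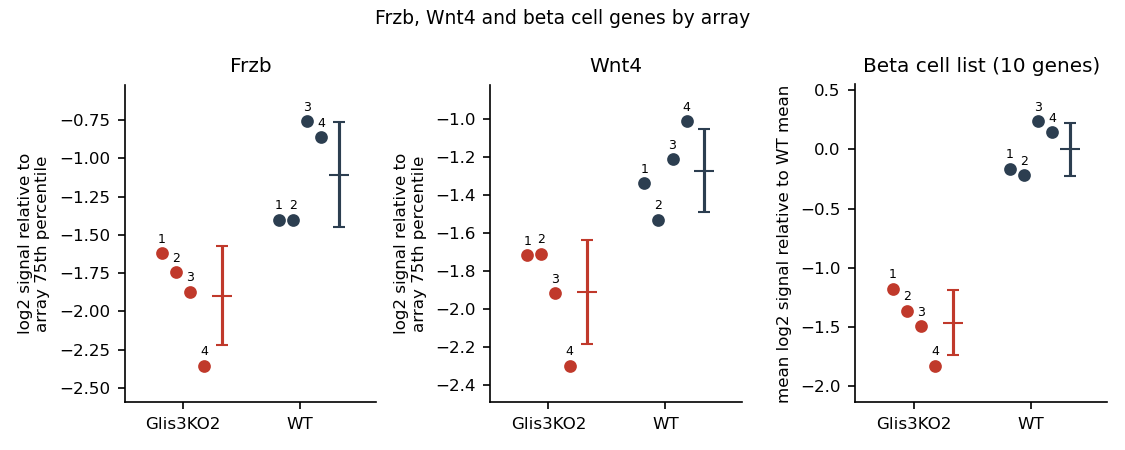
The left and middle panels plot log2 signal, with each array's 75th percentile set to 0, for Frzb and Wnt4, and the right panel the mean over 10 beta cell genes relative to the WT mean. Each point is 1 array with its replicate number, with bars for the mean and SD, and in every panel the 4 Glis3KO2 points lie below the 4 WT points.

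Sfrp4, another secreted Frizzled-related protein, read 0.10, 0.58, 0.18 and 0.01 in Glis3KO2 and 0.57, 0.47, 0.77 and 0.84 in WT. Replicate 2 of Glis3KO2 lay within the WT range, and the difference was -0.45 (SE 0.15, limma adjusted p = 0.430). Sfrp2, of the same family, was at 0.36 (SE 0.18), Sfrp1 at 0.12 (SE 0.16) and Sfrp5 at 0.001 (SE 0.15). Wif1, an inhibitor that binds Wnt through its own domain, was at 0.19 (SE 0.15). The Dickkopf genes had small differences, -0.01 for Dkk1, 0.05 for Dkk2 and 0.03 for Dkk3, and scaling by quantiles or by the median turned the sign of Dkk1.

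Axin2 encodes a scaffold of the complex that degrades beta-catenin and is itself a direct target of the pathway. It read -2.00, -1.57, -0.85 and -1.64 in Glis3KO2, against -2.11, -2.17, -1.36 and -1.73 in WT. The genotypes overlapped, with the highest value on Glis3KO2 replicate 3. The difference was 0.33 (SE 0.26, 95% interval -0.27 to 0.92, limma adjusted p = 0.765), and 0.10 without that array.

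Lef1 encodes a nuclear partner of beta-catenin that is also abundant in T cells. Its brightest probe, at chr3:131060609-131060668 on the plus strand of mm7, read -4.77, -4.75, -4.58 and -3.99 in Glis3KO2 and -1.42, -4.94, -4.90 and -4.31 in WT. WT replicate 1 stood above all 7 other arrays. The log2 difference was -0.63 (SE 0.70, 95% interval -2.22 to 0.97, limma adjusted p = 0.851), and it was 0.20 without that array. The next probe also was highest on WT replicate 1, at -2.13, with -5.14 to -4.18 on the other WT arrays and -5.07 to -4.07 in Glis3KO2.

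Lymphoid genes were high on the same array. A list of 11 such genes, chosen after these values were seen, had a mean relative to WT of -0.64, -0.89, -0.67 and 0.26 on the Glis3KO2 arrays and 2.12, -0.80, -1.05 and -0.27 on the WT arrays. Cd3d, a T cell receptor subunit, read 0.47 on WT replicate 1 and between -3.99 and -2.38 elsewhere. Cd8b1, a subunit of the CD8 co-receptor, was not highest there, at 0.37 against 0.13 to 0.90 elsewhere. Tcf7, a TCF/LEF factor of T cells, read -0.75 there and between -2.04 and -1.48 elsewhere. The mean over 9 general leukocyte genes lay between -0.06 and 0.12 in Glis3KO2 and between -0.29 and 0.33 in WT, highest on WT replicate 1. The part of lymphoid tissue in the Lef1 signal was not tested.

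**Figure D4:**
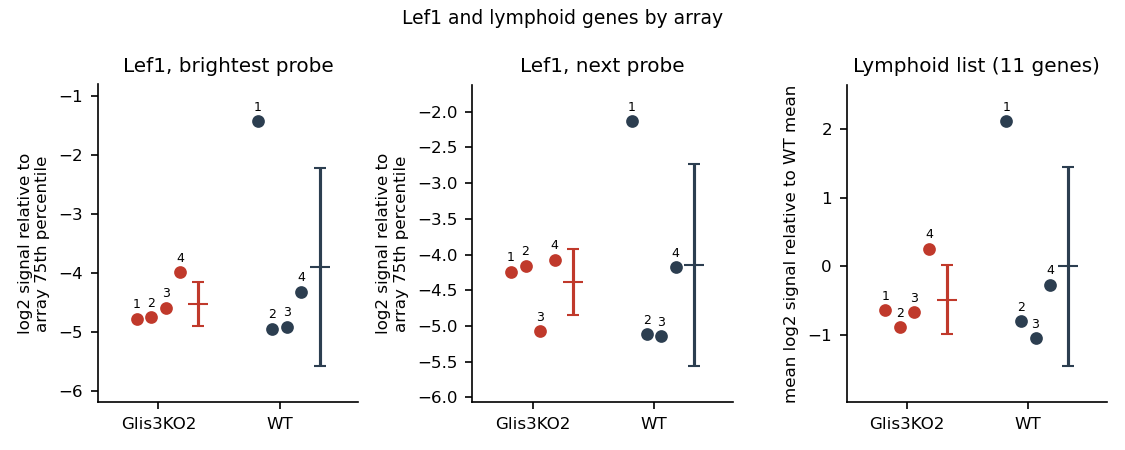
The left and middle panels plot log2 signal of 2 Lef1 probes, with each array's 75th percentile set to 0, and the right panel the mean of 11 lymphoid genes relative to the WT mean. Points are arrays with their replicate numbers and bars the mean and SD, and WT replicate 1 is the highest point in each panel, at -1.42, -2.13 and 2.12.

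The other genes of the pathway were counted from a list of 69, all of which entered the test. None passed the adjusted p of 0.05 by limma, 5 had an unadjusted p under 0.05, and 40 differences were positive and 29 negative, with a median of 0.03. With spike-in scaling 65 were positive and 4 negative, and with normexp 35 and 34. The share with an unadjusted p under 0.05 was 7.25%, against 8.97% of all tested probes. The 12 nuclear proteins of the list had 2 positive and 10 negative differences, with a median of -0.12 (10 and 2 with spike-in scaling), and the 9 genes of R-spondins and their receptors, which control Frizzled levels at the cell surface, had 7 and 2, with a median of 0.17 (9 and 0 with spike-in scaling). The groups did not overlap for 2 of the 69 genes, both lower in Glis3KO2 (2.9%, against 3.35% of all tested probes). With spike-in scaling neither was separated, while Notum, Gpc4, Dvl3 and Prickle1 were separated above WT. How many of all tested probes were separated under that scaling was not counted.

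Ccnd1, the cyclin that drives entry into the cell cycle, read 2.21, 2.67, 2.66 and 2.44 in Glis3KO2 and 2.95, 3.09, 2.97 and 2.91 in WT. Its difference was -0.49 (SE 0.12, limma adjusted p = 0.261). Tle2, a Groucho-type co-repressor, read 1.71, 1.54, 1.39 and 1.48 in Glis3KO2 and 1.87, 1.78, 2.15 and 1.93 in WT. Its difference was -0.40 (SE 0.12, limma adjusted p = 0.349). Neither passed the threshold.

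The 9 target genes of the list had 4 positive and 5 negative differences, with a median of -0.001 (8 and 1 with spike-in scaling). The genes that follow were picked after their values were seen. Sp5, a zinc finger factor known as a direct target, read -2.61, -2.55, -2.13 and -2.19 in Glis3KO2 and -3.46, -3.36, -3.47 and -2.38 in WT. WT replicate 4 overlapped with Glis3KO2, and the difference was 0.79 (SE 0.25, limma adjusted p = 0.391). Notum, a secreted enzyme that removes the lipid of Wnts, was at 0.30, and Lgr5, an R-spondin receptor, at 0.22. Ctnnb1, which encodes beta-catenin, was at 0.07, and Porcn and Wls, needed for ligand secretion, at 0.04 and 0.14. These picked genes were all positive, whereas 29 of the 69 listed genes were negative. Among the negative ones were Kremen1, a surface protein of the list, at -0.38, and the target gene Tnfrsf19, at -0.11.

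Promoters were searched because Glis3 binds DNA and the pathway acts through TCF/LEF. RefSeq windows of 300 bases, 250 before and 50 after a gene's start on GRCm38.p6, were found for 29 of the 43 genes (35 windows). The letters searched on both strands were TGGGGGGT, the core of the Glis family's binding site, and CTTTGAT, that of TCF/LEF. Neither was in the windows of Frzb, at chr2:80447347-80447646 on the minus strand, or of Wnt4, at chr4:137277385-137277684 on the plus strand.
Frzb: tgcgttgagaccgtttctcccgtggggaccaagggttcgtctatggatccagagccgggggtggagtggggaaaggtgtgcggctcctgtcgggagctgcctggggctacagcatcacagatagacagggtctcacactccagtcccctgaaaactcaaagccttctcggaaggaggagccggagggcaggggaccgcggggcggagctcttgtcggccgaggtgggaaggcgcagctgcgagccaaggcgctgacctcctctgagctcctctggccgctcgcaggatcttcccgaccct
Wnt4: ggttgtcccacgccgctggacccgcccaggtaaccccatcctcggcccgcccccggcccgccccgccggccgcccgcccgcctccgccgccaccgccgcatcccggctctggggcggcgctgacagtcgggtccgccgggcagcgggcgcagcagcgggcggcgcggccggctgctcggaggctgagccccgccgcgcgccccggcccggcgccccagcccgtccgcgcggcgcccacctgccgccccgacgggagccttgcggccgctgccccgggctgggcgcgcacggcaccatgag
The Glis letters were in 1 of the 35 member windows (2.86%) and in 501 of all 32851 windows (1.53%). The TCF/LEF letters were in 2 member windows (5.71%), of Wnt11 and Wnt5b, and in 1225 of all windows (3.73%). The window that held both was that of a Wnt5b start at chr6:119449337-119449636 on the minus strand, in which capitals mark the Glis letters, beginning 212 bases before the start, and the TCF/LEF letters, beginning 71 bases before it.
Wnt5b: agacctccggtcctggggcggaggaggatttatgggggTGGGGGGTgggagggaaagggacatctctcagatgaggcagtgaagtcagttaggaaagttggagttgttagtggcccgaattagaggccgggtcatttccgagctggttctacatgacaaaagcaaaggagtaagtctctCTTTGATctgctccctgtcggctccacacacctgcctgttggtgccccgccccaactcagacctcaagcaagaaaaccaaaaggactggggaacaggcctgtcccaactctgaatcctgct
A match is a description of these letters, and Wnt5b had a difference of 0.19 on its brightest probe.

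With normexp, 30 of the 41 differences were smaller in size, 8 turned sign and 6 had an unadjusted p under 0.05. The difference was -0.60 for Frzb and -0.50 for Wnt4 with normexp. Quantile and median scaling moved the median of all probes by 0.01 and 0.03, and Dkk1 alone turned sign under them. Spike-in scaling moved that median by 0.27 and turned 12 of the 41 signs, all to positive.

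**Figure D5:**
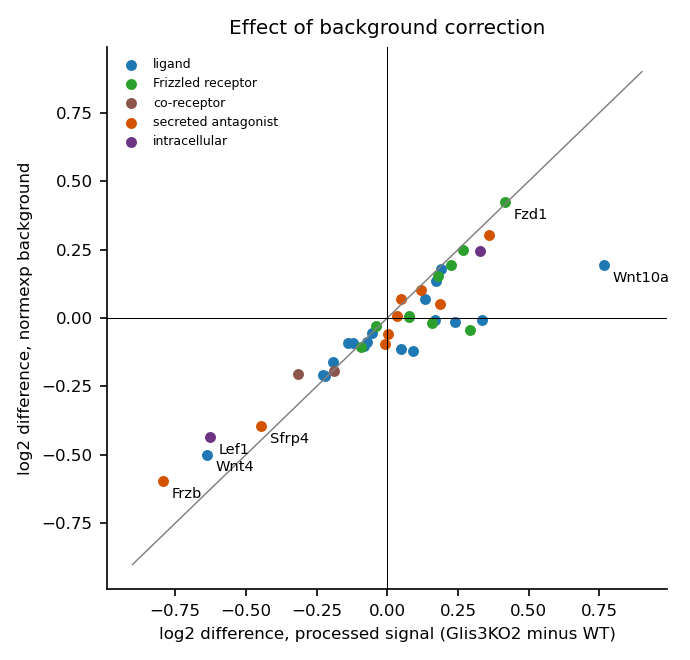
Each point is 1 of the 41 tested genes, coloured by role, with its log2 difference, Glis3KO2 minus WT, from the processed signal on the horizontal axis and from normexp on the vertical axis. The grey line marks equal values, and Wnt10a lies furthest from it, at 0.77 and 0.19.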

How the data were processed

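Deposited values were spot intensity values on a linear scale, 1 Cy3 channel per array, from Agilent Feature Extraction (9.5.3.1 per the file headers, 9.5 per the submitters' processing notes). The processed signal had been detrended by position and by a multiplicative surface, and probe positions are on mm7, per the file headers. At all 45018 features the series table that was deposited equalled that signal. Labelling began with 500 ng of RNA, per the labels' protocols.

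From the processed signal, log2 values were centred on each array's 75th percentile (43379 spots without controls), outlier spots were left out, spots of a probe were averaged, and limma 3.58.1 (R 4.3.3; lmFit, eBayes) compared 4 Glis3KO2 with 4 WT arrays, groups taken from the titles. Each group's number of arrays limits the precision. Probes well above background on 4 or more arrays were tested, 33239 in all, with 2-sided Benjamini-Hochberg adjustment. The fit was tested on simulated data. Genes given by array were those called, up to 14 members and 6 other pathway genes whose genotypes did not overlap, and Axin2 and Lef1; exceptions are named. Members and lists were chosen with earlier results of these data known. Alternatives covered background, scaling (spike-in scaling added after the data were seen), filter, variance, Xist level, probes and left-out arrays. Same-numbered replicates had correlations of deviations of 0.13, 0.09, 0.24 and -0.04, so the numbers were not taken as pairs. A gene of the lymphoid list is not reported here and was left out of its mean.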

Additional observations from a re-analysis of the deposited data

Results flagged for a closer look

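In 4 of 86 groups of 4 arrays, 1 array lay far from the other 3 by Dixon's test (gap over range above the 95% critical value). Chance gives about 1 group in 20, which is close to that number. Fzd3 was low on Glis3KO2 replicate 2, at -3.07. Sfrp5 was low on WT replicate 3, at -3.21. Wnt2 was high on WT replicate 4, at -0.82, and Wnt9b on WT replicate 2, at -2.28. No explanation was tested for any of them.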

How the results depend on the processing

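Under all 21 alternatives run, 1 of them (spike-in scaling) chosen after the data were seen, 0 members and 0 other pathway genes passed the adjusted p of 0.05 by limma, as in the values reported. Frzb stayed negative in all 21, between -0.89 and -0.52 (adjusted p 0.152 to 0.680), and Wnt4 between -0.72 and -0.36 (0.162 to 0.666). Some of these settings could not change the differences of Frzb and Wnt4. They were the filters, trend and robust settings, replicate block, deposited series table and mean over probes. With 1 array left out in turn, both counts stayed at 0, Frzb lay between -0.89 and -0.64, Wnt4 between -0.72 and -0.51, Axin2 between 0.10 and 0.49 and Lef1 between -0.97 and 0.20. Lef1 turned sign in 1 of these, at 0.20 without WT replicate 1. With the replicate number as a block, 0 members were called and Frzb had an adjusted p of 0.467. No call among members or pathway genes was altered by the block.

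Over all probes, 85 were called. The count was 142 with trend and robust settings, 51 with no filter, 53 with spike-in scaling, 27 with Xist as a covariate, 15 with the replicate block and 11 without Glis3KO2 replicates 3 and 4. It was 36, 35 and 36 without WT replicates 1, 3 and 4, 59 without WT replicate 2, 96 and 57 without Glis3KO2 replicates 1 and 2, and 39 without Glis3KO2 replicate 3 or 4 alone; the cause was not tested. With normexp, 5 of the 8 members that turned sign were ligands, which made up 18 of the 41 tested genes.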
